A study of Mus musculus with 5 samples.

Results

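Cadherins and protocadherins, the calcium-dependent adhesion molecules of the cell surface, were followed through the cell populations of the embryonic mouse cerebellum. The family was taken as every gene of the deposited table whose symbol is Cdh or Pcdh with a number, or Pcdha, Pcdhb or Pcdhg with a member label, and 33 of 15971 genes met this rule. These were 4 type I classical cadherins (Cdh1, Cdh2, Cdh4 and Cdh15), 11 type II classical cadherins (Cdh6, Cdh7, Cdh8, Cdh9, Cdh10, Cdh11, Cdh12, Cdh18, Cdh20, Cdh22 and Cdh24) and Cdh13. The protocadherins were 8 delta members (Pcdh1, Pcdh7, Pcdh8, Pcdh9, Pcdh10, Pcdh17, Pcdh18 and Pcdh19), Pcdh15, Pcdh20, 2 members of the alpha cluster (Pcdha12 and Pcdhac2) and 5 of the gamma cluster (Pcdhga4, Pcdhgb6, Pcdhgb7, Pcdhga11 and Pcdhgc3). Cdh5, Cdh23, Pcdhgc4, Pcdhgc5 and the beta cluster were not analysed here.

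RNA was counted in single cells of dissociated mouse cerebellum with a 10x Chromium 3′ assay, which tags each molecule with a unique molecular identifier (UMI). The 5 libraries form 3 groups by title. One is an EomesCreER library from embryonic day 16 (e16, n = 1), and the others are RL libraries from e14 (n = 2) and e13 (n = 2), with RL e13 replicate 2 carrying an age tag of e14. EomesCreER names a line in which the tamoxifen-dependent recombinase CreER is driven from Eomes, RL is the usual short form of rhombic lip although the labels do not spell it out, and UT in the RL titles is not explained there. The sources used here do not state the strain, the treatment, how cells were chosen or whether embryos were pooled. Nothing says that replicates came from separate embryos, and the spread that the p-values rest on may therefore be technical.

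Classical cadherins bind the same or a similar cadherin on a neighbouring cell and are tied to the actin skeleton through catenins. In neural progenitors N-cadherin, the product of Cdh2, holds the adherens junctions at the ventricular surface, and type II cadherins are known for differing between brain divisions and neuron types. Delta protocadherins are a further set of homophilic receptors, several of which recruit the WAVE complex of actin regulators, while the clustered protocadherins are known for giving single neurons an identity on the cell surface. The rhombic lip produces Atoh1 progenitors of granule neurons and, through a separate route, the unipolar brush cells marked by Eomes and Lmx1a.

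Cells were sorted in silico by 5 gates on marker RNAs, none of which is a cadherin. The Sox2 gate held progenitors (Sox2 at 2 or more per 10000 UMIs of the cell), and the Atoh1 gate held Atoh1 progenitors (Atoh1 at 2 or more). The 3 later gates asked for 1 or more of both of their genes. They were Barhl1 and Mapt (differentiating cells of the granule lineage, mixed with Eomes cells), Eomes and Lmx1a (unipolar brush cell lineage), and Tlx3 and Lhx1 (a further set of differentiating neurons). Of 6987 cells, 3905 fell in exactly 1 gate, 1770 that met 2 or more gates were left out, and 1312 met none. The gates held 1221, 1419, 1018, 149 and 98 cells in this order. A profile is the mean over the cells of a gate in a library with 20 or more such cells, scaled to 1000000 and called CPM here, and 14 profiles could be made. The Sox2 and Atoh1 gates gave profiles in all 4 RL libraries. The Barhl1 and Mapt gate gave them in 3 RL libraries and the e16 library, and both other gates in the e16 library alone.

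Libraries held 706 to 2676 cells and 13607965 to 33502151 UMIs, with medians of 10346 UMIs per cell at e16 and 15855 to 19970 in the RL libraries. Of 6981 distinct barcodes, 6 occurred in 2 or more libraries. The gates were checked with markers that did not define them: Nes was at 215.5 to 351 CPM in the Sox2 gate and at 96.2 to 176 CPM in the Atoh1 gate, and Neurod1 was at 131 to 221 CPM in the Barhl1 and Mapt gate and at no more than 27.9 CPM in the Atoh1 gate. Not every marker list set its gate apart. Granule progenitor markers summed to 1668 to 1981 CPM in the Atoh1 gate and 1618 to 2544 CPM in the Barhl1 and Mapt gate. Postmitotic granule markers summed to 2007 to 2872 CPM in the Barhl1 and Mapt gate and 2164 CPM in the Eomes and Lmx1a gate. In the e16 library, 82.1% of the cells of the Barhl1 and Mapt gate held Eomes at 1 or more per 10000 UMIs and 89.7% held Otx2, another brush cell gene, against 47.2% to 55.8% and 17.9% to 33.7% in the RL libraries. The e16 profile of this gate is thus mostly one of Eomes cells, and its RL profiles mix cells with and without Eomes. The e16 profile is kept apart from the RL profiles in the tests of the second step.

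Of the 33 members, 18 reached 10 CPM in at least 1 of the 14 profiles, and the other 15 stayed at or below 6.97 CPM throughout. At a mean of 10 CPM, 10 members were expressed in the Sox2 gate, 10 in the Atoh1 gate, 12 in the Barhl1 and Mapt gate of the RL libraries, 6 in the Eomes and Lmx1a gate and 10 in the Tlx3 and Lhx1 gate. The Sox2 set was Cdh2, Cdh4, Cdh11, Cdh13, Cdh20, Pcdh7, Pcdh9, Pcdh10, Pcdh17 and Pcdh18. In the Atoh1 set, Cdh4, Cdh13 and Pcdh10 were no longer at this level and Cdh7, Pcdh8 and Pcdh15 were. The summed level of all members was 642 ± 124 CPM (SD, n = 4 libraries) in the Sox2 gate and 438 ± 45.5 CPM (n = 4) in the Atoh1 gate.

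**Figure D1:**
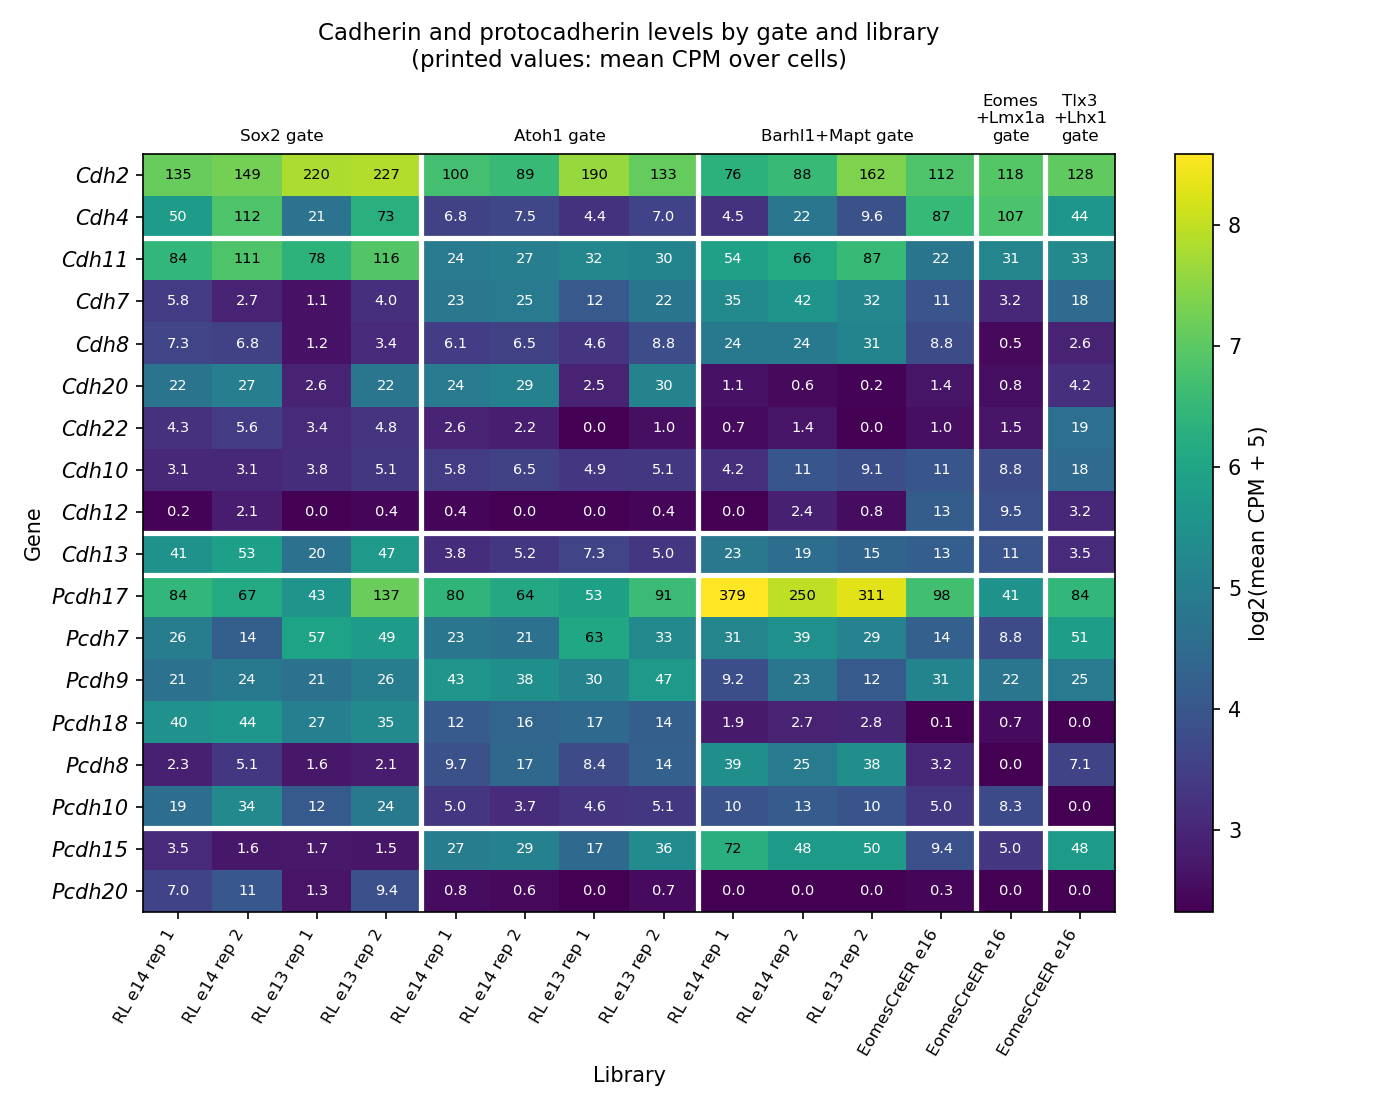
Mean level in CPM of the 18 members that reached 10 CPM in a profile (rows, grouped by family: type I, type II, Cdh13, delta, other protocadherins) in each gate and library (columns); colour is log2(CPM + 5) and the printed numbers are CPM. Cdh4 and Cdh13 are high in the Sox2 gate and low in the Atoh1 gate, and Pcdh17 reaches 250 to 379 CPM in the Barhl1 and Mapt gate of the RL libraries.

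The first step compared the Atoh1 gate with the Sox2 gate within the 4 RL libraries, with the library as a block. Cells of the Atoh1 gate had less RNA of Cdh4, Cdh11, Cdh13, Pcdh10, Pcdh18 and Cdh2 and more of Pcdh15, Cdh7 and Pcdh9. Of 12 members tested, 3 rose and 6 fell (limma, Benjamini-Hochberg over all 8416 genes tested). Over all genes, 11.1% rose and 18.9% fell, 30.0% in either direction, so a call as such was common at this step. With the profiles scaled to a median log ratio of 0, 1182 genes rose and 1290 fell in place of 931 and 1591, and the members' counts stayed at 3 and 6. The median difference was -0.31 over the members tested and -0.05 over all genes tested (differences are in log2(CPM + 5), where the change of a low gene appears smaller than it is). Of the 9 members called, 5 (Pcdh15, Cdh7, Cdh4, Cdh13 and Pcdh10) had a mean under 10 CPM in their lower gate. They passed the filter on low values, a mean of 10 CPM, only through the gate where they were high and had to differ. Of the 7 members with 10 CPM or more in both gates, 4 were called (Cdh11, Pcdh18, Cdh2 and Pcdh9).

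Among the type I cadherins, both members tested fell at this step. Cdh2 (N-cadherin, the junctional cadherin of neural progenitors) was at 135, 149, 220 and 227 CPM in the Sox2 gate of RL e14 replicates 1 and 2 and RL e13 replicates 1 and 2, and at 100, 88.6, 190 and 133 CPM in the Atoh1 gate of the same libraries. It was lower in 4 of 4 libraries although the ranges of the gates overlapped, with a difference of -0.52 ± 0.10 (SE) and a limma adjusted p of 0.00839. Without the block the adjusted p was 0.182, and without RL e13 replicate 2 it was 0.0501. Cdh4 (R-cadherin, the retinal type I cadherin) was at 49.8, 112, 21.2 and 73.4 CPM in the Sox2 gate and at 6.79, 7.53, 4.42 and 7.02 CPM in the Atoh1 gate. The Sox2 profiles varied widely among libraries, yet each of them lay above every Atoh1 profile, and the difference was -2.41 ± 0.26 (limma adjusted p = 0.000795). Cdh1 (E-cadherin, of epithelia) and Cdh15 (M-cadherin, of muscle and of granule neurons) were at 1.25 CPM or less in all 14 profiles.

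Among the type II cadherins, Cdh11 fell and Cdh7 rose. Cdh11 (osteoblast cadherin, also a cadherin of mesenchyme and neural progenitors) was at 83.9, 111, 77.9 and 116 CPM in the Sox2 gate and at 24.2, 27.1, 32.1 and 30.2 CPM in the Atoh1 gate, a difference of -1.60 ± 0.12 (limma adjusted p = 0.000215). The gates did not overlap, and the Atoh1 profiles lay close together. Cdh7 was at 5.85, 2.68, 1.15 and 4.05 CPM in the Sox2 gate and at 23.0, 25.3, 11.8 and 22.2 CPM in the Atoh1 gate (difference 1.60 ± 0.14, limma adjusted p = 0.000391). RL e13 replicate 1 had the lowest Cdh7 level of both gates. Cdh20 did not pass the test: it was at 21.6, 26.8, 2.57 and 22.4 CPM in the Sox2 gate and at 24.3, 28.7, 2.52 and 30.1 CPM in the Atoh1 gate (difference 0.14 ± 0.11, limma adjusted p = 0.362). In both gates RL e13 replicate 1 stood apart from the other 3 libraries.

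Cdh13 (T-cadherin, which has no transmembrane part and is anchored by a lipid) was at 41.2, 52.8, 20.4 and 46.8 CPM in the Sox2 gate and at 3.85, 5.16, 7.32 and 4.96 CPM in the Atoh1 gate. The groups did not overlap, and the difference was -2.08 ± 0.25 (limma adjusted p = 0.00123). Of the delta protocadherins, 1 rose and 2 fell of 5 tested. Pcdh10 (OL-protocadherin, a delta-2 member that binds the WAVE complex) was at 19.0, 33.6, 12.2 and 23.9 CPM in the Sox2 gate and at 4.96, 3.68, 4.64 and 5.14 CPM in the Atoh1 gate (difference -1.44 ± 0.21, limma adjusted p = 0.00284). Pcdh18 (another delta-2 member) was at 40.1, 44.2, 27.3 and 35.0 CPM and then at 12.5, 15.7, 16.9 and 13.7 CPM (difference -1.07 ± 0.14, limma adjusted p = 0.00209). Neither gene's gates overlapped.

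Pcdh9 (a delta-1 member) moved the other way, from 20.9, 24.1, 20.5 and 25.9 CPM in the Sox2 gate to 43.1, 38.2, 29.9 and 46.6 CPM in the Atoh1 gate, with no overlap and a difference of 0.66 ± 0.10 (limma adjusted p = 0.00335). Pcdh17 and Pcdh7 did not pass the test, with differences of -0.09 ± 0.13 and -0.02 ± 0.16 (limma adjusted p = 0.621 and 0.948) and overlapping gates. Pcdh15, best known as a component of the tip links of hair cells, was at 3.48, 1.57, 1.67 and 1.47 CPM in the Sox2 gate and at 26.6, 28.8, 17.1 and 35.6 CPM in the Atoh1 gate. Every Atoh1 profile lay above every Sox2 profile (difference 2.16 ± 0.18, limma adjusted p = 0.000275). Pcdh8 and Pcdh20 were below the filter. Pcdh8 was at 1.59 to 5.11 CPM in the Sox2 gate and 8.45 to 16.8 CPM in the Atoh1 gate, and Pcdh20 was at 6.97, 11.2, 1.34 and 9.38 CPM in the Sox2 gate and at most 0.765 CPM in the Atoh1 gate.

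Markers of other cell types moved with this step. Ptf1a, which marks progenitors of GABAergic neurons, was at 8.94 to 61.6 CPM in the Sox2 gate and at no more than 0.343 CPM in the Atoh1 gate. The summed level of 4 endothelial markers was 6.11 to 36.7 CPM in the Sox2 gate and 1.19 to 4.47 CPM in the Atoh1 gate, that of 4 pericyte markers 5.26 to 11.4 and 1.10 to 1.34 CPM, and that of 4 meningeal markers 2.10 to 7.16 and 0.541 to 2.90 CPM. The part of endothelial, pericyte and meningeal RNA in the differences was not tested. With cells holding a UMI of Msx1 or Ptf1a left out, an alternative chosen after the data had been seen, 3 members rose and 6 fell as before. The share of cells with an Mki67 or Top2a UMI, a sign of cycling, was 46.6% to 63.7% in the Sox2 gate and 56.9% to 64.9% in the Atoh1 gate, and with such cells left out the counts were again 3 and 6. The counts of both alternatives stand without the share of all genes in their fits and are not read as a result about the members.

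**Figure D2:**
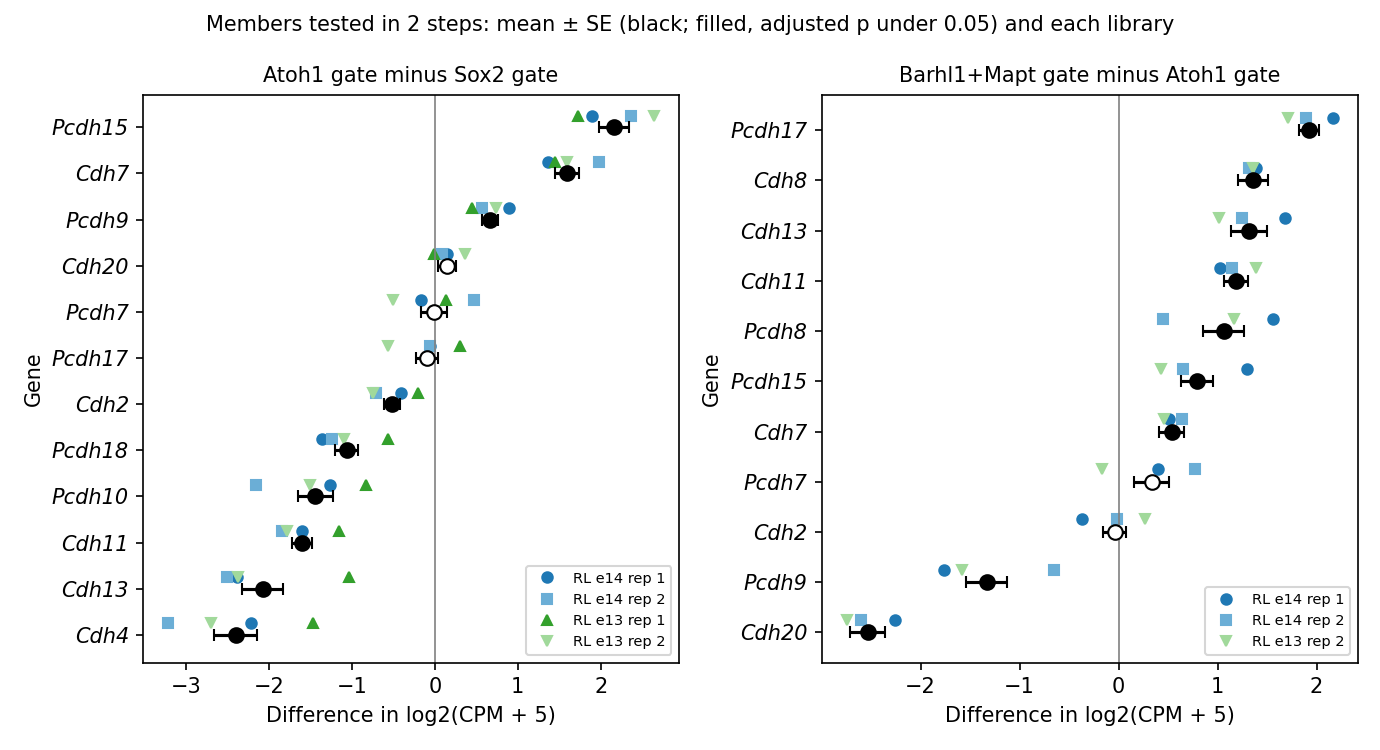
Difference in log2(CPM + 5) between gates for each member tested, for the Atoh1 gate minus the Sox2 gate (left, 4 RL libraries) and the Barhl1 and Mapt gate minus the Atoh1 gate (right, 3 RL libraries). Black circles with bars are the limma estimate ± SE, filled where the adjusted p was under 0.05, and coloured symbols are single libraries; Cdh11 and Cdh13 lie left of 0 in the first step and right of 0 in the second.

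Cells that met the Sox2 and Atoh1 gates at once (78, 36, 67 and 120 cells in the RL libraries, in the order above) were set out as profiles of their own, with no test. Cdh4 was at 4.10, 11.3, 4.29 and 5.91 CPM in them, closer to its Atoh1 gate than to its Sox2 gate in each library. Cdh11 was at 17.3, 19.8, 53.2 and 19.0 CPM. RL e13 replicate 1 alone kept a level between those of its Sox2 and Atoh1 gates, and the other 3 libraries were below both. Pcdh18 was at 22.3, 27.0, 27.0 and 27.9 CPM, between its levels in the Sox2 and Atoh1 gates in every library. Pcdh15, at 9.95, 12.4, 17.2 and 11.8 CPM, was likewise between its gates in 3 libraries and level with the Atoh1 gate in RL e13 replicate 1. Cdh20 was at 38.3, 45.2, 2.68 and 37.1 CPM, above both of its gates in all 4 libraries, by a small margin in RL e13 replicate 1.

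The second step compared the Barhl1 and Mapt gate with the Atoh1 gate within the 3 RL libraries that held both. It shares its Atoh1 profiles with the first step, so the 2 sets of differences are not independent. Eomes was held by 47.2% to 55.8% of the Barhl1 and Mapt cells in these libraries, so this step does not follow granule cells alone. Cells of the Barhl1 and Mapt gate had more RNA of Pcdh17, Cdh8, Cdh13, Cdh11, Pcdh8, Pcdh15 and Cdh7 and less of Cdh20 and Pcdh9. Of 11 members tested, 7 rose and 2 fell (limma, Benjamini-Hochberg over 8277 genes). Over all genes 28.4% rose and 27.7% fell, 56.1% in either direction, so calls were more common still than at the first step. The median difference was 0.79 over the members tested and 0.00 over all genes tested. Cdh20, Cdh8 and Cdh13 had a mean under 10 CPM in their lower gate and passed the filter only through the higher one. Of the 8 members at 10 CPM or more in both gates, 6 were called.

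Of the type II cadherins, 3 rose and 1 fell of 4 tested. Cdh20 was at 24.3, 28.7 and 30.1 CPM in the Atoh1 gate of RL e14 replicates 1 and 2 and RL e13 replicate 2. In the Barhl1 and Mapt gate of each of these libraries it was found as 1 UMI, at 1.13, 0.556 and 0.227 CPM. The difference was -2.53 ± 0.17 (limma adjusted p = 3.52e-06). Cells that met both gates at once held 11.3 CPM in RL e14 replicate 1 (26 cells) and 11.9 CPM in RL e13 replicate 2 (40 cells), between the gates. Cdh8 was at 6.07, 6.53 and 8.83 CPM in the Atoh1 gate and at 24.0, 23.8 and 30.5 CPM in the Barhl1 and Mapt gate (difference 1.36 ± 0.15, limma adjusted p = 5.56e-05), with no overlap.

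Cdh11, which had fallen at the first step, was at 54.4, 66.3 and 87.5 CPM in the Barhl1 and Mapt gate against 24.2, 27.1 and 30.2 CPM in the Atoh1 gate (difference 1.19 ± 0.12, limma adjusted p = 3.34e-05). Cdh13 was at 23.4, 19.1 and 15.2 CPM against 3.85, 5.16 and 4.96 CPM (difference 1.32 ± 0.18, limma adjusted p = 0.000225). In each of the 3 libraries both genes were lower in the Atoh1 gate than in the Sox2 gate and the Barhl1 and Mapt gate. Cdh7 was at 34.9, 42.2 and 32.3 CPM against 23.0, 25.3 and 22.2 CPM (difference 0.54 ± 0.13, limma adjusted p = 0.00563), with no overlap. With cells holding Eomes or Otx2 left out, an alternative added after the data had been seen, the difference of Cdh7 was 0.45 and its limma adjusted p was 0.102. Cdh2, at 76.3, 87.6 and 162 CPM, did not pass the test (difference -0.04 ± 0.12, limma adjusted p = 0.795), and its gates overlapped.

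Of the delta protocadherins, 2 rose and 1 fell of 4 tested. Pcdh17 (a delta-2 member known for its place at synapses and in axon extension) was at 80.3, 63.8 and 91.3 CPM in the Atoh1 gate and at 379, 250 and 311 CPM in the Barhl1 and Mapt gate. The groups were far apart, and the difference was 1.93 ± 0.10 (limma adjusted p = 8.36e-07). Pcdh8 (arcadlin, a delta-2 member known to be induced by neuronal activity) was at 9.73, 16.8 and 13.9 CPM and then at 38.6, 24.7 and 37.6 CPM (difference 1.06 ± 0.20, limma adjusted p = 0.00172). Pcdh9 fell from 43.1, 38.2 and 46.6 CPM to 9.16, 22.6 and 12.2 CPM (difference -1.33 ± 0.21, limma adjusted p = 0.000492). With lower gate thresholds, which bring in the e16 library, Pcdh8 and Pcdh9 lost their calls (limma adjusted p = 0.296 and 0.139). Pcdh15 rose further, to 72.4, 48.0 and 49.5 CPM (difference 0.79 ± 0.16, limma adjusted p = 0.00266). Pcdh7 did not pass the test (difference 0.33 ± 0.18, limma adjusted p = 0.138), though it did without RL e13 replicate 2 (limma adjusted p = 0.0264). Pcdh18 was below the filter, with 12.5, 15.7 and 13.7 CPM in the Atoh1 gate and 1.89, 2.72 and 2.78 CPM in the Barhl1 and Mapt gate.

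**Figure D3:**
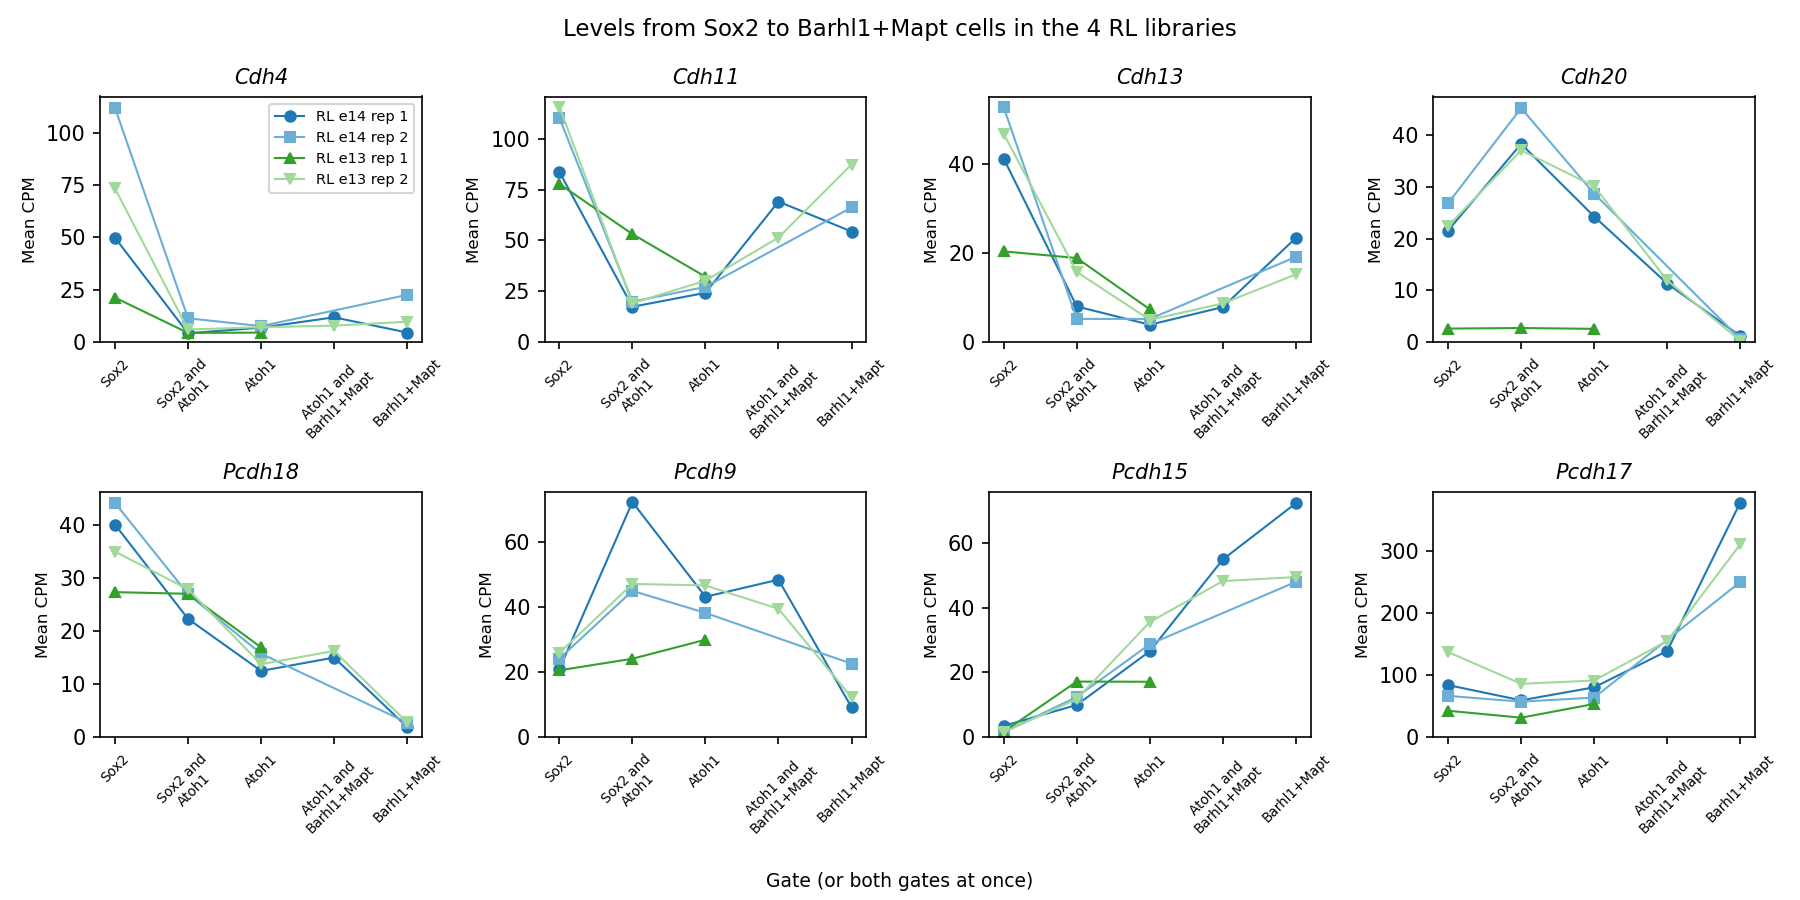
Mean level in CPM (vertical axes, from 0) of 8 members along the gates from Sox2 to Barhl1 and Mapt (horizontal axes, with cells that met 2 gates at once between them) in the 4 RL libraries; lines join the values of a library and are no time course. Cdh11 and Cdh13 are lower in the Atoh1 gate than in the Sox2 gate and the Barhl1 and Mapt gate, Cdh11 is lower still in the cells with Sox2 and Atoh1 in 3 of 4 libraries, Cdh20 peaks in the cells with Sox2 and Atoh1 and is near 0 in the Barhl1 and Mapt gate, and RL e13 replicate 1 has little Cdh20 throughout.

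Several members lie near each other in the genome (GENCODE annotation of GRCm38, the assembly of mm10). Pcdh8, Pcdh17, Pcdh20 and Pcdh9 follow each other on chromosome 14, with gaps of 4.67, 3.93 and 4.54 megabases. Of these neighbours Pcdh17 and Pcdh8 rose at the second step, Pcdh9 fell and Pcdh20 was below the filter. Cdh20 and Cdh7 lie 4.99 megabases apart on chromosome 1 with Cdh20 at 104768529 to 104995481 and Cdh7 at 109982431 to 110140157, and they moved in opposite directions at the second step. Pcdh10 and Pcdh18, 4.31 megabases apart on chromosome 3, both fell at the first step. At the second step both were below the filter, and their levels went opposite ways. Pcdh10 was at 10.2 to 12.8 CPM in the Barhl1 and Mapt gate against 3.68 to 5.14 CPM in the Atoh1 gate. Pcdh18 was at 1.89 to 2.78 CPM against 12.5 to 15.7 CPM. Cdh8 and Cdh11 are 3.22 megabases apart on chromosome 8, and both rose at the second step.

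The stretches of 250 bases just upstream of the RefSeq starts of 4 of these genes are shown, as 2 members that fell (Cdh20 at the second step and Pcdh10 at the first) and the chromosome 14 neighbours that rose at the second step (Pcdh17 and Pcdh8). The sequences are from RefSeq (GRCm38.p6), 5′ to 3′ on the strand of the gene, with CANNTG in capitals (the E-box letters that basic helix-loop-helix factors such as Atoh1 can bind, and the same on both strands). None of the windows overlaps its annotated gene.
Cdh20, chr1:104768270-104768519, plus strand: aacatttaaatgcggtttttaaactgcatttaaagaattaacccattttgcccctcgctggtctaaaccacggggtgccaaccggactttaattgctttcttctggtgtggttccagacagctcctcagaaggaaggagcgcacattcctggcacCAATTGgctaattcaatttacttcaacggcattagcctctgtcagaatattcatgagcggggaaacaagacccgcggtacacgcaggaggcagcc
Pcdh17, chr14:84443313-84443562, plus strand: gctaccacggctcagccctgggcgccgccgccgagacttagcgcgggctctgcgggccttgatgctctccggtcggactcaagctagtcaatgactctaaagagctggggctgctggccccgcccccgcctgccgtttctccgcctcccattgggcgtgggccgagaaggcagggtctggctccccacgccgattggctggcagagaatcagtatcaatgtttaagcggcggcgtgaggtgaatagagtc
Pcdh8, chr14:79771313-79771562, minus strand: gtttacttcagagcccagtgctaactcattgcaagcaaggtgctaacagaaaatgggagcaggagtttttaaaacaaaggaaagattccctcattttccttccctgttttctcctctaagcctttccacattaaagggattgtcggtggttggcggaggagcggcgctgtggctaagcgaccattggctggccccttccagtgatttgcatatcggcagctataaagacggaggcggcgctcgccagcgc
Pcdh10, chr3:45378148-45378397, plus strand: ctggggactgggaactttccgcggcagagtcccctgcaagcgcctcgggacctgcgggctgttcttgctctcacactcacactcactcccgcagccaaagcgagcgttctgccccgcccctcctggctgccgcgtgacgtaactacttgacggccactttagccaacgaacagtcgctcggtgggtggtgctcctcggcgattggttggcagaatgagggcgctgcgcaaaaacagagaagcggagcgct

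The Cdh20 window held 1 CANNTG, and the other 3 windows held none. Windows of the same length were matched for 20 of the 33 members (23 windows, since a gene can have several starts). CANNTG was present in 12 of these 23 windows and in 66.2% of 32817 windows of all genes. CAGGTG, a form of CANNTG that the repressors Zeb1 and Zeb2 can bind (searched on both strands), was in 3 of the 23 and in 17.2% of all. These matches describe the letters only.

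Partners of the cadherins were taken from lists, whose counts stand beside 11.1% of all genes that rose and 18.9% that fell at the first step, and 28.4% and 27.7% at the second. Vcl and Fat4 at the first step, and Fat2, Jup, Clstn3 and Fat3 at the second, were under 10 CPM in their lower gate, passed the filter only through the higher one and had to differ. The list of catenins, which link classical cadherins to actin, also held Vcl and Mllt4, which are not catenins. Of its 7 genes tested, 0 rose and 5 fell at the first step, Vcl and Mllt4 among them. Vcl (vinculin) changed by -1.504 ± 0.24, from 35.5 ± 13.04 CPM (SD, n = 4) to 8.76 ± 1.63 CPM, Ctnna1 (alpha-E-catenin) changed by -0.88 ± 0.08 and Ctnna2 (alpha-N-catenin) by -0.73 ± 0.12 (limma adjusted p = 0.00381, 0.000495 and 0.00504). At the second step 3 rose and 2 fell of 7. Jup (gamma-catenin) rose by 1.71 ± 0.19, while Ctnnb1 (beta-catenin) fell by 1.27 and Ctnna1 by 0.70 (limma adjusted p = 5.05e-05, 1.81e-05 and 0.00365).

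Of 8 atypical cadherin genes tested, 0 rose and 7 fell at the first step, with Fat4 at -1.66 ± 0.31, Fat3 at -1.65 ± 0.13 (giant cadherins) and Fjx1, a kinase of that pathway, at -1.47 ± 0.07 (limma adjusted p = 0.00838, 0.000261 and 4.02e-05). At the second step 6 of 9 rose and 2 fell. Fat2, a giant cadherin of granule cells, went from 0.374 ± 0.286 CPM to 28.7 ± 17.5 CPM (SD, n = 3; difference 2.53 ± 0.24), and Clstn3 (calsyntenin) rose by 1.71 ± 0.18, while Fat1 fell by 1.29 (limma adjusted p = 2e-05, 4.19e-05 and 9.31e-05).

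The repressors of cadherin genes split at the first step. Zeb1 rose by 1.06 ± 0.10, from 61.2 ± 15.3 to 133 ± 27.3 CPM (SD, n = 4), and Zeb2 fell by 1.39, from 157 ± 42.2 to 56.4 ± 14.04 CPM (limma adjusted p = 0.000428 and 0.000892). Both fell at the second step, Zeb1 by 0.996 and Zeb2 by 0.33 (limma adjusted p = 0.000214 and 0.0496). Of the WAVE complex 2 rose and 3 fell of 9 at the first step, with Nckap1 at -0.43 ± 0.09, Cyfip2 at 0.38 ± 0.10 and Wasf1 at 0.34 ± 0.10 (limma adjusted p = 0.0133, 0.0340 and 0.0354). At the second step 3 rose and 1 fell of 9, against 56.1% of all genes called in either direction, led by Cyfip2 (from 15.3 ± 2.57 to 151 ± 20.2 CPM, SD, n = 3; difference 2.93 ± 0.14) and Wasf2 (which fell by 1.42, limma adjusted p = 6.3e-07 and 2.21e-05), followed by Abi1 at 0.44 ± 0.12 (limma adjusted p = 0.0104). The nectin Pvrl3 fell at both steps, by 0.82 and by 1.05 (limma adjusted p = 0.00117 and 0.000137). Of the enzymes that shed cadherins, 0 of 3 were called at the first step, and 1 of 4 rose at the second (Bace1, 0.59 ± 0.11, limma adjusted p = 0.00156). Of 6 regulators of the protocadherin clusters, 0 were called at the first step and 5 fell at the second, with Smchd1 at -0.76 ± 0.09, Rad21 at -0.57 ± 0.09 and Setdb1 at -0.52 ± 0.11 (limma adjusted p = 6.08e-05, 0.00042 and 0.00306).

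The e16 library was set beside the RL libraries in the Barhl1 and Mapt gate, with no test since it is the 1 library of its age and line. Age, line and cell selection cannot be told apart. Of the 14 members at 10 CPM or more on either side, 4 lay above the range of the 3 RL libraries (Cdh4, Cdh10, Cdh12 and Pcdh9), 9 lay below it (Cdh7, Cdh8, Cdh11, Cdh13, Pcdh7, Pcdh8, Pcdh10, Pcdh15 and Pcdh17) and Cdh2 lay within it, at 112 CPM. Of all 8572 genes at this level, 34.2% lay above and 27.4% below the range, 61.6% on either side, so a value outside it was common. Cdh4 was at 4.45, 22.5 and 9.63 CPM in the RL libraries and at 86.7 CPM at e16. Cdh12 was at 0, 2.37 and 0.808 CPM in the RL libraries and at 13.02 CPM at e16, where 99 UMIs in 73 of 719 cells carried it (summed UMIs gave 12.2 CPM, 95% Poisson interval 9.89 to 14.8, for counting error only). Pcdh8 was at 24.7 to 38.6 CPM against 3.24 CPM at e16, and Pcdh15 at 48.0 to 72.4 CPM against 9.36 CPM.

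Eomes cells made up most of this e16 profile, and splitting the gate by Eomes (under 1, or 1 or more, per 10000 UMIs) moved several members within the library. The split was made after the share of Eomes cells had been seen. In the e16 library, the 129 cells without Eomes and the 590 cells with it held Cdh13 at 53.8 and 4.46 CPM, Cdh8 at 30.3 and 4.13 CPM, Cdh7 at 23.2 and 7.82 CPM, and Pcdh17 at 192 and 77.6 CPM. Cdh4 went the other way, from 51.4 to 94.4 CPM. The level of Cdh8 in the e16 cells without Eomes lay within the 22.4 to 33.1 CPM of the RL cells without Eomes, while Pcdh8 (6.47 against 35.9 to 47.2 CPM) and Pcdh17 (192 against 300 to 390 CPM) stayed below. These cells are not alike: of the 129 e16 cells without Eomes, 37 also lacked Otx2, against 41 of 43, 31 of 38 and 57 of 67 in the RL libraries.

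Over the 4 libraries with both kinds of cell, 0 of 12 members tested were called, with 7 at an unadjusted p under 0.05 (826 of 8154 genes, 10.1%), and 0.662% of all genes were called in either direction (limma with the library as a block). Pcdh10 was at 15.1, 26.8, 14.4 and 13.5 CPM without Eomes in RL e14 replicates 1 and 2, RL e13 replicate 2 and the e16 library, and at 5.15, 1.71, 5.84 and 3.20 CPM with Eomes. Its groups did not overlap (difference -1.31 ± 0.27, limma adjusted p = 0.0605). Cdh13 was at 28.1, 36.0, 18.7 and 53.8 CPM without Eomes and at 18.5, 5.79, 11.3 and 4.46 CPM with it, lower in 4 of 4 libraries and apart by a narrow margin (difference -1.40 ± 0.32, limma adjusted p = 0.0886). Without RL e14 replicate 1 the call of Cdh13 passed (limma adjusted p = 0.0486), and without the e16 library that of Pcdh10 did (0.0417). Pcdh10 averaged 3.98 CPM with Eomes over the 4 libraries and 4.23 CPM without the e16 library. It passed the filter only through the cells without Eomes and had to differ. The same held for Cdh13 without RL e14 replicate 1, at 7.18 CPM with Eomes. The share of cells with an Mki67 or Top2a UMI in the whole gate was 7.09% at e16 and 19.8% to 31.5% in the RL libraries. With those cells left out the limma adjusted p of Pcdh10 was 0.0244, again with its level with Eomes under the filter (4.15 CPM).

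**Figure D4:**
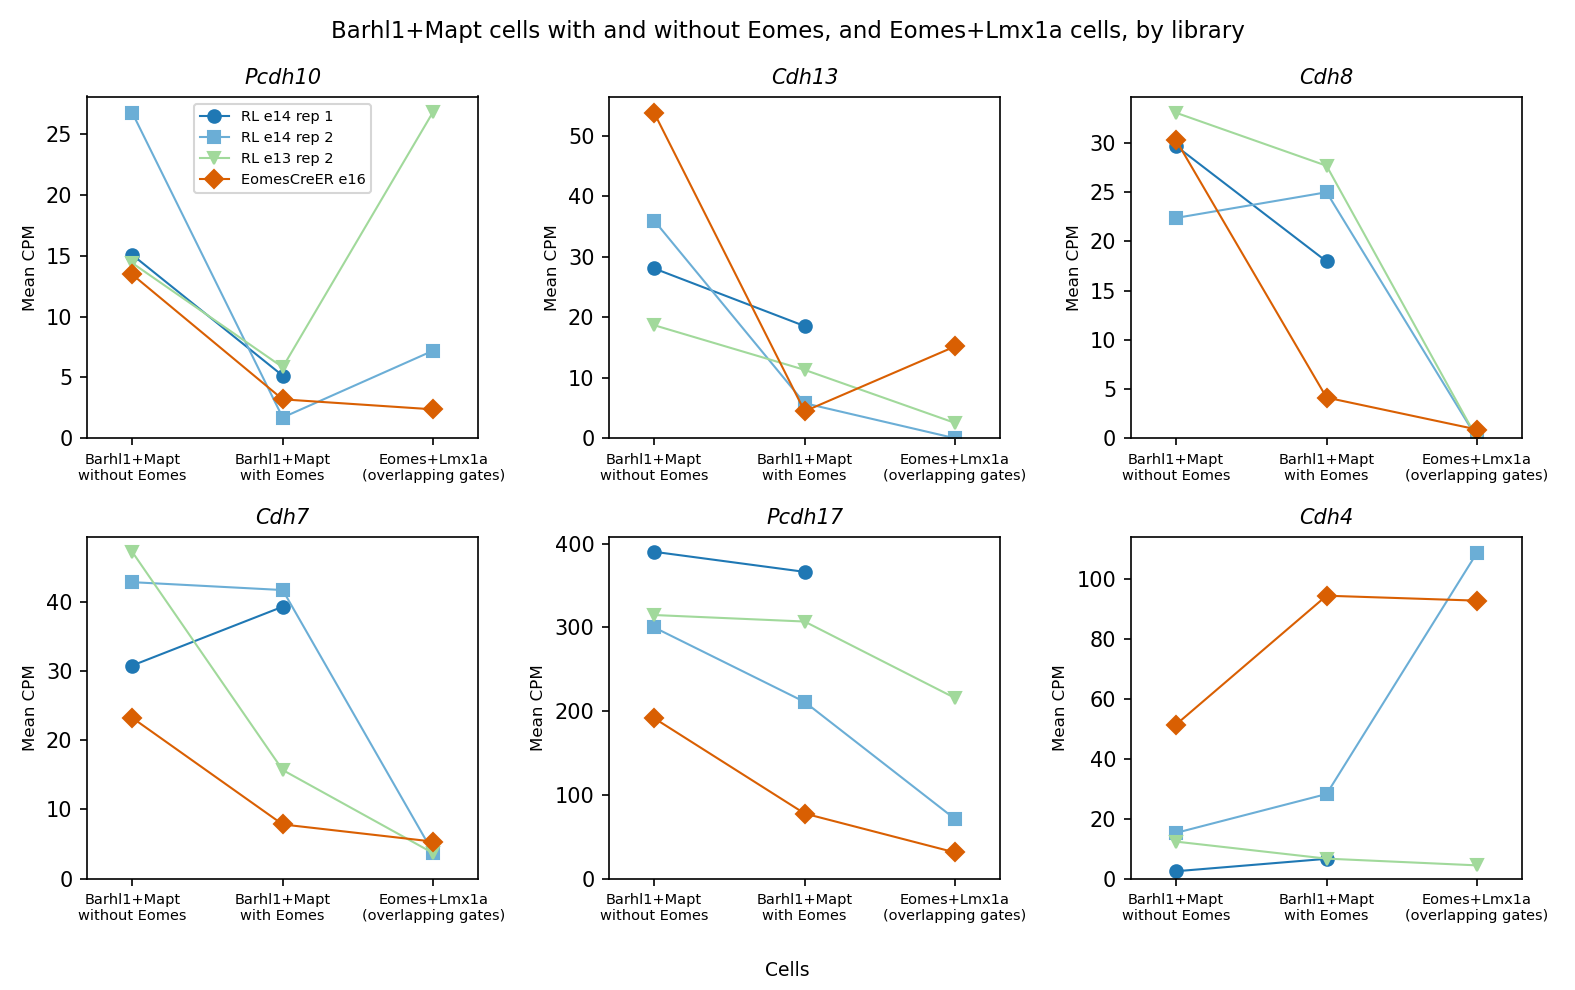
Mean level in CPM (vertical axes, from 0) of 6 members in Barhl1 and Mapt cells without Eomes, in those with Eomes, and in Eomes and Lmx1a cells with overlapping gates (horizontal axes), by library; lines join the values of a library, and RL e14 replicate 1 had too few cells for the third set. Pcdh10 and Cdh13 are lower with Eomes in all 4 libraries, Cdh8 is at or below 0.889 CPM in Eomes and Lmx1a cells, and Cdh4 is high there in 2 of 3 libraries.

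The Eomes and Lmx1a gate, the brush cell lineage, held 130 cells at e16 and 0 to 9 cells in the RL libraries. Cdh4 was at 107 CPM in it (152 UMIs), Cdh2 at 118 CPM, Pcdh17 at 40.8 CPM, Cdh11 at 30.9 CPM, Pcdh9 at 22.3 CPM and Cdh13 at 10.6 CPM. These 6 were the members at 10 CPM or more. Cdh12 was at 9.50 CPM and Cdh10 at 8.81 CPM. Pcdh8 was not found among these cells, which allows up to 2.04 CPM (3 UMIs), and Cdh8 and Pcdh18 were found as 1 UMI each. The 1277 e16 cells that met this gate and the Barhl1 and Mapt gate at once held Cdh4 at 91.6 CPM, Cdh12 at 23.0 CPM, Cdh8 at 0.930 CPM and Pcdh17 at 30.2 CPM.

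To test this lineage, cells that met several gates were kept in the latest gate they met, which was done after the files had shown that exclusive gates left no library with 20 cells in both. Then RL e14 replicate 2 and RL e13 replicate 2 held 25 Eomes and Lmx1a cells each. Against the Atoh1 gate of these 2 libraries, 4 of 11 members tested rose and 2 fell, beside 16.5% and 16.9% of all genes (limma, Benjamini-Hochberg over 8358 genes). Cdh11 was at 54.3 and 107 CPM (mean of the Atoh1 gate 27.4 ± 1.59, SD, n = 2; difference 1.34 ± 0.26, limma adjusted p = 2.47e-05), Pcdh17 at 71.0 and 216 CPM (difference 0.68 ± 0.20, limma adjusted p = 0.00538) and Cdh2 at 149 and 161 CPM (difference 0.49 ± 0.17, limma adjusted p = 0.02501). Cdh20, at 1.70 and 0 CPM, and Cdh7, at 3.74 and 3.67 CPM, were lower (differences -2.63 ± 0.46 and -1.68 ± 0.44, limma adjusted p = 3.92e-06 and 0.00185). Cdh4 was called (difference 1.40 ± 0.45, limma adjusted p = 0.0122) although it was high in 1 library only, with 109 CPM in RL e14 replicate 2 and 4.39 CPM in RL e13 replicate 2. Of 7 alternatives, 6 lost the call of Cdh4 (limma adjusted p = 0.0545 to 0.410), 4 that of Cdh2 (0.0575 to 0.187), 3 that of Pcdh17 (0.0573 to 0.378) and 1 that of Cdh7 (0.0776). Cdh20, Cdh7 and Cdh4 were under 10 CPM in their lower gate and passed the filter only through the higher one. With 2 libraries these calls rest on the spread pooled over genes.

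Against the Barhl1 and Mapt gate of 3 libraries with overlapping gates, 0.0484% of all genes rose and 0.109% fell, 0.157% in either direction. Of 11 members tested, 0 were called, with 5 at an unadjusted p under 0.05 (703 of 8263 genes, 8.51%). Without the e16 library 4 fell: Cdh8 by 2.56, Cdh7 by 2.27, Pcdh8 by 1.29 and Pcdh17 by 0.97 (limma adjusted p = 4.05e-05, 7.16e-06, 0.0446 and 3e-06), beside 2.13% of all genes that fell in that fit. There Cdh8, Cdh7 and Pcdh8 averaged 0, 3.70 and 9.79 CPM in the Eomes and Lmx1a gate. They passed the filter only through the Barhl1 and Mapt gate and had to differ. Without RL e13 replicate 2, Pcdh17 fell (limma adjusted p = 0.00669, beside 0.159% of all genes). The mean levels over the 3 libraries were 4.25 ± 0.944 CPM (SD) in the Eomes and Lmx1a gate against 28.2 ± 15.9 CPM for Cdh7, and 106 ± 97.1 CPM against 199 ± 90.2 CPM for Pcdh17.

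The Tlx3 and Lhx1 gate held 64 cells at e16. Of these cells, 65.6% held Eomes and 71.9% held Otx2, at the threshold given for the Barhl1 and Mapt gate. This profile too is thus mostly one of Eomes cells. The summed level of 3 oligodendrocyte lineage markers was 54.6 CPM in this profile and 5.62 to 15.3 CPM in the other 13 profiles. Only 2 of these markers were above 0 in this profile, and Olig1 was not found. Whether oligodendrocyte lineage cells had a part in the levels of this gate was not tested. Cdh22 was at 19.5 CPM there (16 UMIs in 14 cells, 16.7 CPM from summed UMIs, 95% Poisson interval 9.56 to 27.2) and at no more than 5.58 CPM in the other 13 profiles. Pcdh15 was at 48.1 CPM and Pcdh7 at 50.7 CPM, against 5.02 and 8.78 CPM in the Eomes and Lmx1a gate of the same library, and Cdh4 was at 43.6 CPM against 107 CPM. Cdh10 (17.9 CPM), Cdh7 (17.9 CPM), Cdh11 (33.3 CPM), Pcdh9 (25.1 CPM), Pcdh17 (84.0 CPM) and Cdh2 (128 CPM) were the other members at 10 CPM or more. Neither Pcdh10 nor Pcdh18 was found, which allows up to 3.14 CPM each.

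With overlapping gates the Tlx3 and Lhx1 gate held 27, 30 and 77 cells in RL e14 replicates 1 and 2 and the e16 library. Cdh22 was at 10.48, 9.41 and 16.2 CPM in these profiles and thus near or above 10 CPM in each of them. Its RL values rest on the 27 and 30 cells alone. Against the Barhl1 and Mapt gate 0 of 12 members were called, with 3 at an unadjusted p under 0.05 (985 of 8216 genes), beside 1.02% of all genes called in either direction (limma). Without the e16 library Pcdh17 fell by 0.89 (limma adjusted p = 1.8e-05), beside 1.91% of all genes that fell. Against the Eomes and Lmx1a gate of RL e14 replicate 2 and the e16 library, Pcdh15 rose (71.9 and 40.0 against 31.0 and 7.19 CPM; difference 1.49 ± 0.31, limma adjusted p = 0.0237) and Cdh4 fell (8.74 and 39.4 against 109 and 92.7 CPM; difference -2.09 ± 0.39, limma adjusted p = 0.0143). Of 7 alternatives, 4 lost the call of Pcdh15 (limma adjusted p = 0.0507 to 0.567) and 2 that of Cdh4 (0.0516 to 0.279). These were 2 of 9 members tested, beside 2.14% of all genes that rose and 2.25% that fell, 4.38% in either direction.

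Clustered protocadherins were close to the limit of detection. In the annotation both alpha members end at the same base, as do all 5 gamma members, so a read near the 3′ end cannot be assigned to 1 member, and the values may miss such reads. All 7 stayed at or below 2.56 CPM in each of the 14 profiles, the highest being Pcdhac2 in the Eomes and Lmx1a gate. After thinning each cell to 5000 UMIs, 0% to 0.877% of the cells of the Sox2 gate held a UMI of any of them, 0% to 1.15% in the Atoh1 gate, 0% to 1.55% in the Barhl1 and Mapt gate, 3.08% (4 of 130 cells, exact binomial interval 0.845% to 7.69%) in the Eomes and Lmx1a gate and 1.56% (1 of 64 cells, 0.0396% to 8.40%) in the Tlx3 and Lhx1 gate. Unthinned, these shares were 0.585% to 2.59%, 0% to 2.29%, 0.787% to 3.62%, 4.62% and 3.12%. Free RNA can give such shares, no cell type known to lack these genes was among the gates, and the shares are not read as a difference between gates. Of the other low members, Cdh6 (at most 5.06 CPM), Cdh9 (5.10 CPM), Cdh24 (2.64 CPM), Pcdh1 (5.24 CPM) and Pcdh19 (3.60 CPM) were under the filter in every profile, and Cdh18 was highest in the Tlx3 and Lhx1 gate at 6.97 CPM (5 UMIs).

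Between the e14 and e13 RL libraries, 0 of 10 members tested were called in the Sox2 gate and 0 of 10 in the Atoh1 gate, with 2 at an unadjusted p under 0.05 in each (limma, 2 libraries against 2). No gene of the whole table was called either (0% in both gates), with 794 (9.43%) and 1196 (14.7%) at an unadjusted p under 0.05. The 2 members in each gate were Cdh2 and Pcdh7. Cdh2 was at 135 and 149 CPM at e14 and 220 and 227 CPM at e13 in the Sox2 gate, and at 100 and 88.6 CPM against 190 and 133 CPM in the Atoh1 gate. Pcdh7 was at 25.9 and 13.6 CPM against 57.2 and 49.4 CPM in the Sox2 gate, and at 22.5 and 20.8 CPM against 63.0 and 33.4 CPM in the Atoh1 gate. Neither gene's ages overlapped, which 2 libraries against 2 can readily give, and the share of all genes without overlap was not counted. The limma adjusted p was 0.527 for both genes in the Sox2 gate and 0.290 for both in the Atoh1 gate. The step from Sox2 to Atoh1 differed between the ages for 0 of 12 members (0% of all genes, interaction term in limma), and 0 members had an unadjusted p under 0.05. Leaving out RL e13 replicate 2 gave calls in the Atoh1 gate for Cdh20, Cdh7, Cdh2 and Pcdh7 (limma adjusted p = 0.009, 0.048, 0.0207 and 0.0129) and for the step of Cdh13 (0.0279). In those fits 8.01% and 3.95% of all genes were called, and e13 is RL e13 replicate 1 alone, which is assumed to vary like the e14 pair.

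Grouped by the age tag, RL e13 replicate 1 is the 1 library of e13, so again only effect sizes are given. Cdh20 was higher at e14 in the Sox2 gate (23.6 against 2.57 CPM) and in the Atoh1 gate (27.7 against 2.52 CPM). It passed the filter only through the libraries where it was high. Pcdh7 was lower at e14 in the Atoh1 gate (25.6 against 63.0 CPM). RL e13 replicate 1 stood apart in other genes as well. In its Sox2 gate Msx1, a homeobox gene, was at 69.2 CPM, against 7.25 to 16.5 CPM in the other RL libraries, and Pcdh20 was at 1.34 CPM, against 6.97 to 11.2 CPM. Age and library cannot be told apart in this grouping, and the part of the Msx1 cells in the level of Cdh20 was not tested.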

How the data were processed

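The authors deposited one matrix of natural log values for 6987 cells, ln(1 + 10000 × UMIs of the gene / UMIs of the cell), from libraries made with 10x Chromium 3′ kits per the labels' protocols. Per the submitters' processing notes the tool was Cell Ranger and the build mm10, with no version stated. UMI counts were recovered from the deposited natural log values: 100% of 29540669 values were whole within 0.01. Cells were tied to libraries by the batch names in the file. The name of 1 batch matches no title, and that batch was taken as the e16 library because it was the 1 left after the others matched, so every e16 value rests on this match.

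Profiles (mean CPM per gate and library, 20 or more cells) were compared as log2(CPM + 5) with limma 3.58.1 in R 4.3.3 (trend, library as a block), keeping genes whose mean over those profiles reached 10 CPM, with Benjamini-Hochberg adjustment over all genes and a threshold of 0.05. A cell's gates belong to 1 library, which is why the library is the block. The age comparisons have no block. Other values were computed with Python 3.11.15, numpy 2.4.6, scipy 1.17.1 and pandas 2.3.3. Code was tested on simulated data. Doublets were not called, and cells that met 2 gates were left out of single gates. Poisson and exact binomial intervals are at 95%, and a count of 0 allows up to 3 UMIs; both cover counting error only.

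The members and gene lists were chosen with earlier results of these data known. The text gives every member that was tested or reached 10 CPM, and up to 3 called genes of each partner list, the largest absolute difference first. Alternatives were the pseudocount, filter, scaling, gate thresholds, gate overlap, summed UMIs, leaving out cells with many UMIs, cycling cells, the block, and each library in turn. The tests with overlapping gates, the split by Eomes and the fits without Eomes, Otx2, Msx1 or Ptf1a cells were added after the data had been seen.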

Additional observations from a re-analysis of the deposited data

Results flagged for a closer look

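For 5 values the e16 library moved one way and both RL libraries with a value moved the other, in comparisons with overlapping gates. The difference between the libraries was not tested. Between the Eomes and Lmx1a gate and the Barhl1 and Mapt gate, the log2(CPM + 5) difference of Pcdh9 was -0.51 at e16 and 0.45 and 0.66 in RL e14 replicate 2 and RL e13 replicate 2. That of Cdh13 was 0.13 at e16 and -2.12 and -1.28 in the same RL libraries. Between the Tlx3 and Lhx1 gate and the Barhl1 and Mapt gate, Cdh7 differed by 0.41 at e16 and by -0.03 and -0.14 in RL e14 replicates 1 and 2. Pcdh8 differed by 0.39 at e16 and by -0.50 and -0.47 in those libraries, and Cdh11 by 0.38 at e16 and by -0.20 and -0.46.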

How the results depend on the processing

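Of 124 counts of members called under an alternative, 105 stayed within 1.5 times the reported count. Of 608 differences of single members, 544 kept their direction and their side of the threshold, 25 lost a call, 24 gained one and 15 changed sign. For those that changed, the cause was not tested. With no filter on low values, 15 members were called from Atoh1 to Barhl1 and Mapt. Among these were members near 0 in both gates, such as Pcdh20 (0 against 0.687 CPM in the Atoh1 gate) and Cdh22 (0.690 against 1.95 CPM). Without the replicate block, 8 were called from Sox2 to Atoh1 and 9 from Atoh1 to Barhl1 and Mapt. Between the Eomes and Lmx1a gate and the Atoh1 gate, 3 members were called with median log ratio scaling and 3 without the replicate block. Leaving out 1 library gave 0 to 4 calls between the Eomes and Lmx1a and the Barhl1 and Mapt gates, and 0 to 1 between the Tlx3 and Lhx1 and the Barhl1 and Mapt gates and for the split by Eomes. In those fits 0% to 3.52%, 0.267% to 3.96% and 0.0858% to 1.24% of all genes were called in either direction, in this order. Between the Tlx3 and Lhx1 and the Eomes and Lmx1a gates, the count was 1 at a pseudocount of 1 CPM, 4 at 20 CPM, 1 with no filter, 0 with median log ratio scaling and 0 without the replicate block. The split by Eomes gave 1 call with cycling cells left out. Counts of calls are not given singly for age fits that leave 1 library at an age. Only the fits with 1 library left out have a share of all genes beside their counts here. The other counts of calls are not read as results about the members. At 5 CPM, 11 members were expressed in the Eomes and Lmx1a gate.

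Each change of sign was of a member that was not called. From Sox2 to Atoh1, Cdh20 was at -0.0806 with lower and -0.0011 with higher gate thresholds. Pcdh17 was at 0.24 with lower thresholds, 0.27 without cycling cells and -0.226 to 0.0611 with 1 library left out (above 0 without RL e13 replicate 2). Pcdh7 was at 0.0329 with median log ratio scaling, 0.0284 with the latest gate, 0.0626 without cycling cells, -0.180 to 0.145 with 1 library left out (above 0 without RL e14 replicate 1 or RL e13 replicate 2), 0.19 without Eomes or Otx2 cells and 0.13 without Msx1 or Ptf1a cells. From Atoh1 to Barhl1 and Mapt, Cdh2 was at 0.22 without cycling cells and -0.195 to 0.126 with 1 library left out (above 0 without RL e14 replicate 1). Between ages in the Atoh1 gate, Cdh20 was at -0.162 without RL e13 replicate 1 and at 2.06 without RL e13 replicate 2. The ages were not paired, because nothing states that a replicate number marks a shared animal or batch. Gates with few cells limit the depth: a count of 0 allows up to 3.14 CPM in the Tlx3 and Lhx1 gate at e16.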
